A study of Mus musculus with 6 samples.

Results

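The genes described here are 9 that mark or serve the T helper 17 program in T cells, read in regulatory T cells (Treg cells) from mouse tumours: the transcription factors Rora and Stat3, the cytokines Il17a and Il22, the receptors Il23r, Il1r1 and Ccr6, and the neighbouring membrane protein genes Tmem176a and Tmem176b. They were found by symbol through the GENCODE M21 annotation, 9 of the 54446 genes listed in the count tables, and were selected on earlier Ythdf2 cKO over control values of these same libraries. Their genotype differences are therefore a description with no test. Live CD45+ CD4+ cells carrying the Foxp3-GFP reporter were sorted from subcutaneous B16F10 tumours (a mouse melanoma cell line) and their total RNA was sequenced. The 3 libraries labelled Ythdf2 cKO have the genotype Foxp3CreYthdf2fl/fl and the 3 titled as controls have Foxp3CreYthdf2fl/+, so all 6 carry Foxp3Cre and at least 1 floxed allele, and the controls are not free of Cre or of a floxed copy. Cre is driven by Foxp3, so recombination is directed at Treg cells. Ythdf2 cKO replicates 2 and 3 and control replicate 3 came from cage 2, and Ythdf2 cKO replicate 1 and control replicates 1 and 2 from cage 1.

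T helper 17 cells arise under IL-6, IL-1 and IL-23. Of these, IL-6 and IL-23 signal through STAT3 to nuclear receptors, RORα (Rora) among them. T helper 17 cells secrete IL-17A and IL-22 and follow CCL20 through CCR6. Some Treg cells share part of this program. TMEM176A and TMEM176B are small proteins that cross membranes several times. In the mouse they are known from type 17 lymphocytes and also from dendritic cells and macrophages. YTHDF2, the deleted gene's product, binds N6-methyladenosine in mRNA and promotes its decay.

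The libraries held 5602053 to 13602069 gene counts. Ythdf2 itself was at 90.1, 104 and 104 CPM (counts scaled by TMM-adjusted library size) in Ythdf2 cKO replicates 1, 2 and 3 and at 124, 102 and 93.1 CPM in control replicates 1, 2 and 3, so the counts do not separate the genotypes and directions are given for the libraries as labelled. The sort gene Foxp3 was read in every library, at 325 to 608 CPM. Control replicate 3 stood apart, with 42.6% of its gene counts in mitochondrial ribosomal RNA against 9.97% to 19.2% in the other libraries. The labels do not state whether libraries came from separate animals, and a p-value here covers the spread among the sequenced samples, which may be technical. The sum of 8 melanoma markers was 2333, 3204 and 4867 CPM in the cage 2 libraries and 48.2, 355 and 472 CPM in those of cage 1. In bulk RNA, fewer cells of a type and less RNA per cell cannot be told apart.

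Tmem176a and Tmem176b lie head to head on chromosome 6 (mm10), at 48840919 to 48847071 on the plus strand and 48833818 to 48841496 on the minus strand, and their annotated spans overlap by 578 bases, of which 81 are exonic in both. RefSeq (GRCm38.p6, the assembly of mm10) gives 2 start sites for Tmem176a and 3 for Tmem176b, and the closest divergent starts are 109 bases apart. The window from 250 bases before to 50 after the first Tmem176a start is shown because it holds the starts of both genes whose levels moved together in these libraries. It is chr6:48841233-48841532, plus strand, 5′ to 3′, with the 108 bases between the Tmem176b start and the Tmem176a start in capitals:
Tmem176a window: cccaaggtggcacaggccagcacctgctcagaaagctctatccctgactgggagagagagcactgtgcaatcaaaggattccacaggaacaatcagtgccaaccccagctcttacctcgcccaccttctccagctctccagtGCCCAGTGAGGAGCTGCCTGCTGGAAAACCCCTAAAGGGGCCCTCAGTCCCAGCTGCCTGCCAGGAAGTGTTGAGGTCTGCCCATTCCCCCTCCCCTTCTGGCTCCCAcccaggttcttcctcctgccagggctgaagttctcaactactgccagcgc
The interval between the starts is 63.9% G and C. Reads from the shared exonic bases cannot be assigned to a gene without strand, and the strand setting of the counting is not given in the sources used here.

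**Figure D1:**
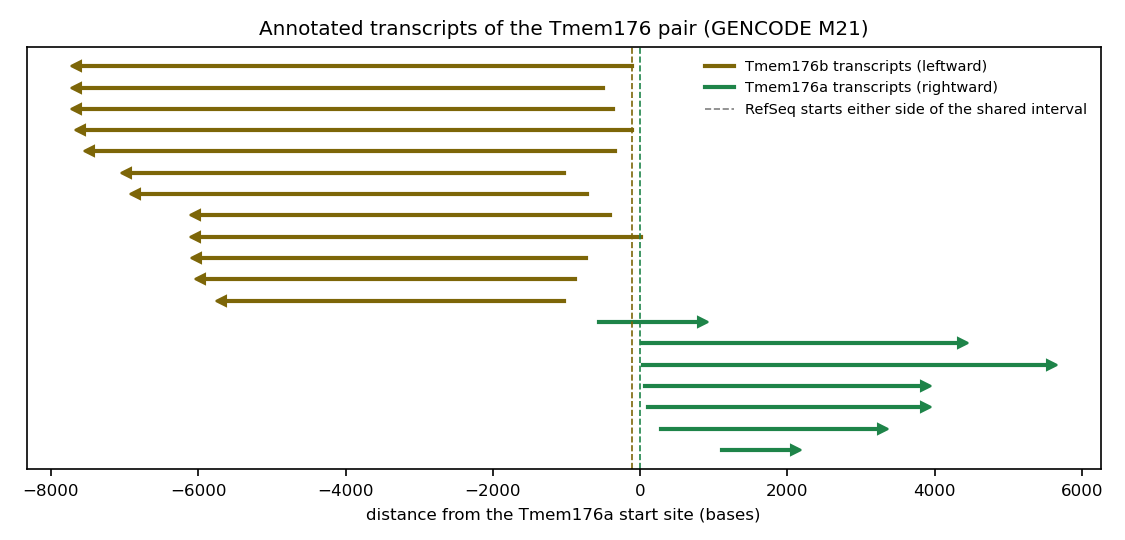
Annotated GENCODE M21 transcripts of Tmem176b (brown, leftward) and Tmem176a (green, rightward), drawn from end to end against distance in bases from the first RefSeq start of Tmem176a. The dashed lines are the closest divergent RefSeq starts, 109 bases apart, and transcripts of both genes begin around them.

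Promoter windows of the same size were found in RefSeq for 9 of 9 genes (14 windows). The core element bound by RORα, AGGTCA, searched on both strands, was present in windows of 3 genes, Il17a, Il23r and Ccr6, and in 18.1% of all 27025 genes with a window. The matches are shown because these are the members whose windows hold that element, each printed on the gene's own strand with the match in capitals (TGACCT is AGGTCA on the other strand):
Il17a chr1:20730774-20730801, plus strand: tggttctgtgcTGACCTcatttgaggat
Il23r chr6:67492068-67492095, minus strand: atgaccaccatTGACCTgtttgacttct
Il23r chr6:67491905-67491932, minus strand: aatgaaaatgtAGGTCAgggctctgctg
Ccr6 chr17:8235988-8236015, plus strand: agtgaaatcatTGACCTagttacataag
The Il17a match lies 115 bases before the start, those of Il23r 224 and 61 bases and that of Ccr6 39 bases. The longer TAGGTCA, which contains AGGTCA, was in windows of Il23r and Ccr6 and in 2.97% of all genes. The STAT element TTCNNNGAA was in windows of 1 gene, Ccr6, and in 9.55% of all genes. A match is a description of these letters and not a measured binding site.

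Of the 9 genes, 7 passed the filter on low counts and Il17a and Il22 did not. Per kilobase of annotated exon, the mean level over the 6 libraries was 52.9 ± 9.33 CPM per kilobase for Stat3 and 42.6 ± 11.3 for Rora (SD, n = 6). Stat3 lay above Rora in 6 of 6 libraries, although their ranges overlapped. Then came Ccr6 at 9.17 ± 6.09 and Tmem176b at 8.64 ± 3.76 CPM per kilobase, an order that held in 2 of 6 libraries and is within their spread. Tmem176a stood at 1.94 ± 1.37, below Tmem176b in 6 of 6 libraries, and Il23r at 1.02 ± 0.604 CPM per kilobase. Il1r1 at 0.301 ± 0.209 and Il17a at 0.276 ± 0.248 CPM per kilobase did not differ beyond their spread, and Il22 was lowest at 0.0265 ± 0.0650. The libraries thus held abundant RNA for Stat3 and Rora and close to none for the cytokines Il17a and Il22. Which cells that RNA came from was not tested.

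**Figure D2:**
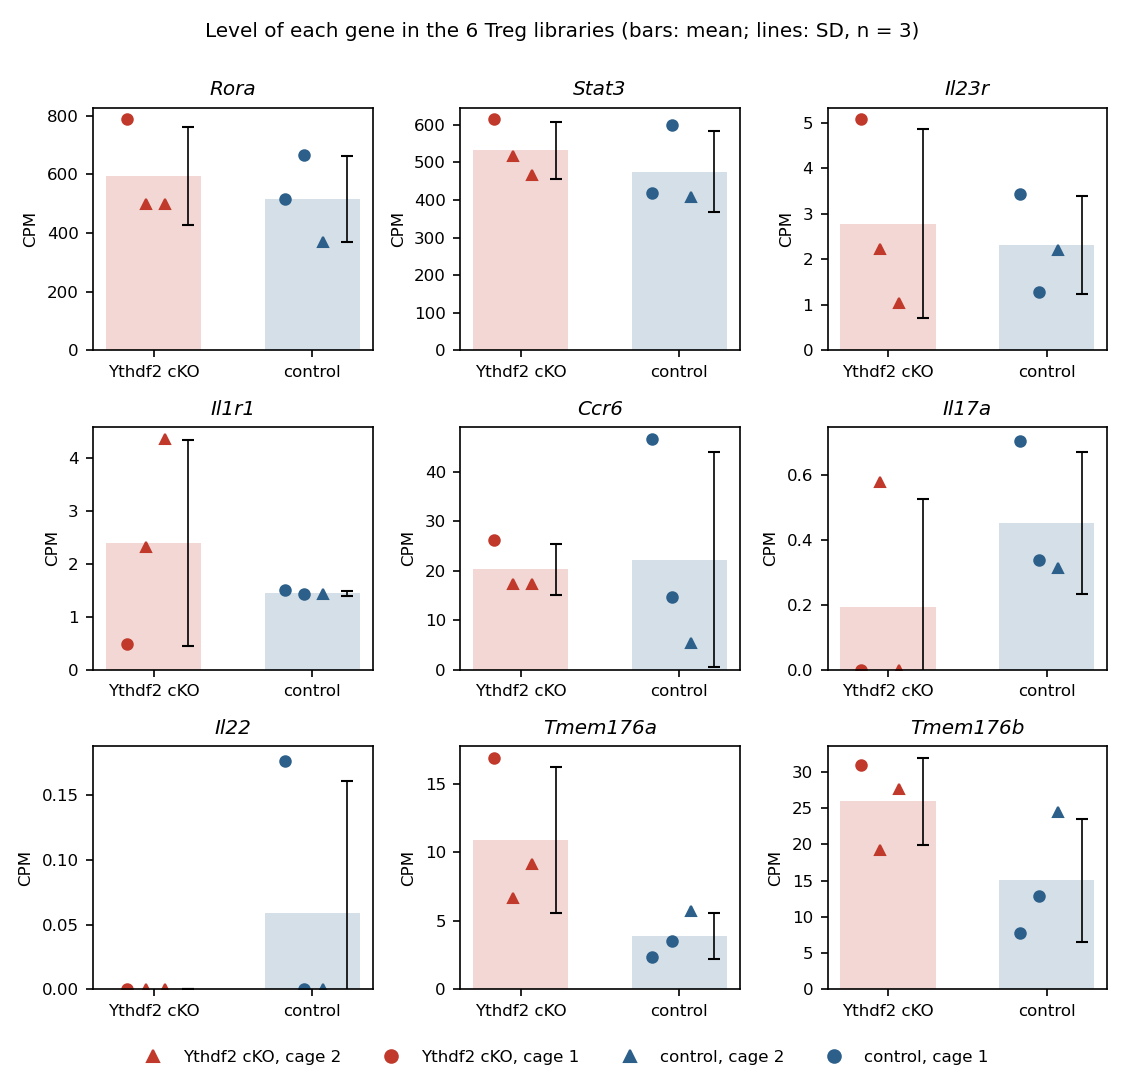
CPM of each of the 9 genes, with Ythdf2 cKO (red) left of control (blue), 1 point a library, triangles for cage 2 and circles for cage 1. Bars are means and lines are SD (n = 3), each panel on its own axis from 0. Tmem176a is the gene among the 9 whose 3 Ythdf2 cKO libraries all lie above the 3 controls.

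Between the genotypes, 0 of 13172 genes tested (0%) passed at a Benjamini-Hochberg adjusted p under 0.05 in the quasi-likelihood test of edgeR, with 213 at an unadjusted p under 0.05, and DESeq2 and limma-voom also called 0, with 279 and 239. Of the 7 genes that passed the filter, 6 had a log2 fold change (Ythdf2 cKO over control) above 0, with a median of 0.25 beside a median of -0.0049 over all genes. In 1 of the 7, Tmem176a, every Ythdf2 cKO library lay above every control, which was so for 3.4% of all genes tested, and in 0 of the 7 did every Ythdf2 cKO library lie below, which was so for 4.22%. Since these genes were chosen with this contrast known, nothing is read from those counts.

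Tmem176a had the largest genotype difference of the 7. It was read 103, 69 and 88 times in Ythdf2 cKO replicates 1, 2 and 3, or 16.9, 6.66 and 9.14 CPM, and 27, 52 and 36 times in control replicates 1, 2 and 3, or 2.38, 3.52 and 5.68 CPM. The groups did not overlap, and the nearest libraries, Ythdf2 cKO replicate 2 and control replicate 3, both came from cage 2. On the log2 scale Ythdf2 cKO exceeded control by 1.5 (standard error 0.53), and by 1.04 without Ythdf2 cKO replicate 1. Within cage 1 the Ythdf2 cKO library exceeded the controls by 2.46 on the log2 scale, and within cage 2 the Ythdf2 cKO libraries exceeded the control by 0.44.

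Tmem176b was at 31.0, 19.3 and 27.6 CPM in Ythdf2 cKO replicates 1, 2 and 3, against 7.77, 12.9 and 24.5 CPM in control replicates 1, 2 and 3. Here the groups overlapped, because control replicate 3 exceeded Ythdf2 cKO replicate 2. On the log2 scale Ythdf2 cKO exceeded control by 0.79 (standard error 0.44), by 0.48 when control replicate 1 was left out and by 1.35 when control replicate 3 was. The difference was 1.61 within cage 1 and -0.082 within cage 2. The difference between the cages in the genotype effect (cage 2 minus cage 1) was -2.0 for Tmem176a and -1.61 for Tmem176b, in an edgeR fit that called 0.0554% of 16260 genes. These are given as a description, since the genotype values chose the genes, and come from a fit in which 2 of the 4 combinations of genotype and cage hold 1 library.

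Per 1000 reads of Cd4, Cd3e, Trac and Lck, 4 genes that mark CD4 T cells, Tmem176a stood at 9.08, 4.41 and 7.34 reads in Ythdf2 cKO replicates 1, 2 and 3 and at 1.43, 1.81 and 5.41 reads in control replicates 1, 2 and 3. On that scale, chosen after seeing the data, control replicate 3 lay above Ythdf2 cKO replicate 2, so the genotypes overlapped; the log2 fold change with libraries scaled to those genes was 1.29 for Tmem176a and 0.59 for Tmem176b.

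The pair kept a similar order across the libraries. Over the 6 libraries the log2 CPM of Tmem176a and Tmem176b had Pearson r = 0.92 and Spearman rho = 0.94, a description over points that share library and depth and, for these genes, 81 exonic bases. Tmem176a made up 35.3% of the pair's reads in Ythdf2 cKO replicate 1 (exact 95% binomial interval 29.8% to 41.1%), 25.7% in replicate 2 (20.5% to 31.3%) and 24.9% in replicate 3 (20.4% to 29.7%). In control replicates 1, 2 and 3 its share was 23.5% (16.1% to 32.3%), 21.5% (16.5% to 27.2%) and 18.8% (13.6% to 25.1%). The intervals cover counting error only. The Ythdf2 cKO shares all lay above the control shares, but the intervals of Ythdf2 cKO replicates 2 and 3 overlapped those of every control. This is a description with no test, since the genotype values chose these genes. How often other gene pairs separate in this way was not computed.

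**Figure D3:**
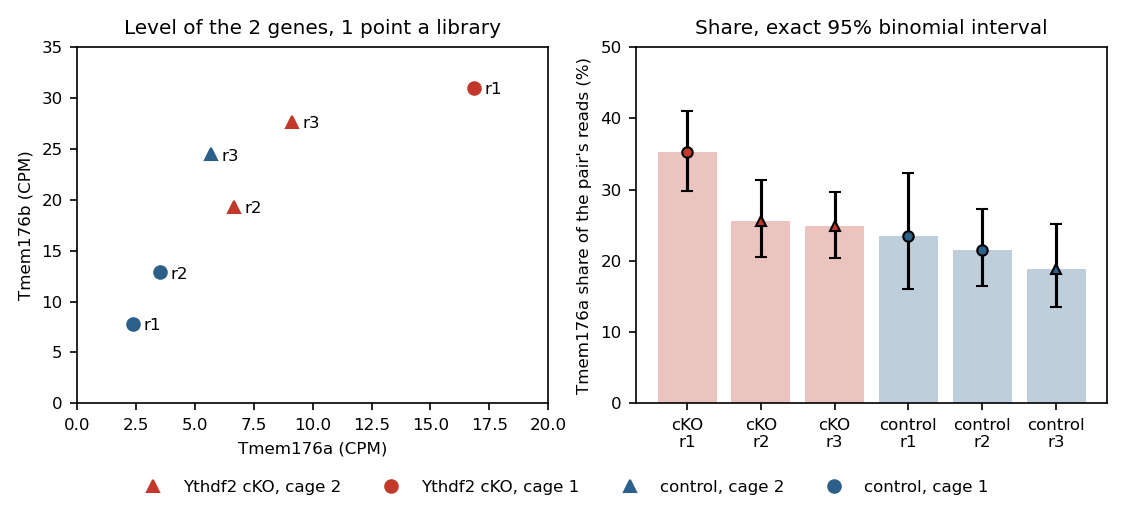
Left, Tmem176b against Tmem176a in CPM, 1 point a library labelled with its replicate number; right, the share of the pair's reads that are Tmem176a, in percent, with exact 95% binomial intervals, Ythdf2 cKO left of control. The 2 genes rise together, and Ythdf2 cKO replicate 1 is highest in both panels, at 16.9 CPM Tmem176a and 35.3%.

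Other cells that can carry Tmem176 RNA were looked for by markers. The sum of 10 macrophage and monocyte markers was 8.84, 17.9 and 121 CPM in Ythdf2 cKO replicates 1, 2 and 3 and 14.5, 53.9 and 252 CPM in control replicates 1, 2 and 3. It was lowest in Ythdf2 cKO replicate 1, the library with the most Tmem176a and Tmem176b, where Adgre1, C1qa, C1qb, Mrc1 and Fcgr1 were at 0. Among the controls it ran in the same order as Tmem176a and Tmem176b, with control replicate 3 highest. Between the genotypes 9 of the 9 markers that passed the filter had a log2 fold change below 0, beside 49.3% of all genes above 0. Between the cages 10 of 10 had one above 0, with a median of 3.04 and 3 called higher. The sum of 10 dendritic cell markers was 209, 232 and 290.04 CPM in the Ythdf2 cKO libraries and 212, 195 and 274 CPM in the controls, most of it from Cd74. In Ythdf2 cKO replicate 1 the dendritic markers Flt3, Itgax, Clec9a, Cd209a, Siglech and Fscn1 were at 0, whereas Zbtb46 and Xcr1 were at their highest there, 37.7 and 6.22 CPM. Of 8 markers of gamma delta T cells and innate type 17 lymphocytes, 1 (Trdc) passed the filter, 1 (Cd163l1) was at 0 in every library, and their sum ran from 0.983 to 5.69 CPM in the Ythdf2 cKO libraries and from 2.37 to 3.53 CPM in the controls. B cells also carry Ccr6, and the sum of 4 B cell markers was 15.1, 7.72 and 6.85 CPM in the Ythdf2 cKO libraries and 4.86, 5.35 and 5.36 CPM in the controls. Ccr6 was highest in control replicate 1, the library with the lowest B cell sum. The sum of 5 CD8 T and NK cell markers was 25.9, 7.62 and 9.14 CPM in the Ythdf2 cKO libraries and 12.4, 9.68 and 11.5 CPM in the controls. It was highest in Ythdf2 cKO replicate 1. The NK marker Klrb1c was at 0 in every library, whereas the NK marker Ncr1 was read 5 times, all in Ythdf2 cKO replicate 1 (0.819 CPM). The sum was mostly Cd8b1 except in control replicate 3, where Cd8a was at 5.84 and Cd8b1 at 5.36 CPM. Neutrophil markers summed to at most 3.63 CPM in any library. The part of the macrophage, CD8, dendritic and B cell signals in these results was not tested.

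The 5 genes most like the pair, by Pearson r with the mean log2 CPM of Tmem176a and Tmem176b among 9451 named genes at a mean of 5 CPM or more, were Atn1 (r = 0.996), Ube2e3 (0.985), Arid2 (0.983), Sft2d1 (0.973) and Plpp5 (0.970). Spearman rho was 1 for the first 4 and 0.77 for Plpp5. Without the 2 libraries farthest from the pair's median, control replicate 1 and Ythdf2 cKO replicate 1, r ran from 0.870 to 0.990. These are descriptions over 6 libraries, in which 61 of the 9451 genes had r over 0.9.

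Among the transcription factors, Rora was read 4814, 5185 and 4793 times in Ythdf2 cKO replicates 1, 2 and 3 (788, 500.3 and 498 CPM) and 5850, 9822 and 2346 times in control replicates 1, 2 and 3 (517, 665 and 370.2 CPM). The genotypes overlapped, with the highest value in Ythdf2 cKO replicate 1 and the lowest in control replicate 3. Its log2 fold change, 0.20 (standard error 0.28), became -0.058 without Ythdf2 cKO replicate 1. The difference was 0.43 within each cage, each time with 1 library on one side. Stat3 was at 615, 516 and 466 CPM in the Ythdf2 cKO libraries and 419.7, 599 and 407 CPM in the controls. It varied least of the 9 genes, with a highest value 1.51 times the lowest, and its log2 fold change was 0.16 (standard error 0.21).

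Cage was not the label by which the genes were chosen, and it was tested with genotype kept as a term. Genotype and cage are unbalanced in these libraries, so the genotype values that chose the genes can carry part of a cage difference. Rora fell in the cage 2 libraries, to 456 ± 74.4 CPM against 657 ± 136 CPM in cage 1 (SD, n = 3 each), and every cage 2 library lay below every cage 1 library. That is -0.67 on the log2 scale (standard error 0.13, edgeR adjusted p = 0.015). Of the 14235 genes in that fit 10% were called, 438 (3.08%) as lower and 991 (6.96%) as higher. The difference was the same in each genotype, -0.66 in the Ythdf2 cKO libraries and -0.66 in the controls. Over all genes tested, 11.5% had every cage 2 library below every cage 1 library and 15.3% had every one above; of the 7 genes, 1 (Rora) and 0 did. The call was lost without control replicate 3 (adjusted p = 0.076), Ythdf2 cKO replicate 1 (0.080) or Ythdf2 cKO replicate 3 (0.066), within a range of 3.06e-05 to 0.86 over 16 alternatives.

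T cell RNA was lower in the same libraries. The summed levels of Cd4, Cd3e, Trac and Lck were 1509.7, 1245 and 1049 CPM in the cage 2 libraries (Ythdf2 cKO replicates 2 and 3 and control replicate 3) and 1858, 1673 and 1949 CPM in those of cage 1 (Ythdf2 cKO replicate 1 and control replicates 1 and 2). Of these 4 genes 3 were called lower in cage 2, as were 3 of 5 Treg markers, among them Foxp3 with a log2 fold change of -0.65 (standard error 0.12, edgeR adjusted p = 0.010), while 8 of 8 melanoma markers were called higher. Per 1000 reads of those 4 T cell genes, Rora stood at 331, 399.5 and 353 reads in the cage 2 libraries and at 424, 309 and 341 in those of cage 1. On that scale the cages overlapped, and with the libraries scaled to the 4 genes Rora differed by -0.049 on the log2 scale (edgeR adjusted p = 0.86), beside a median of 0.65 over all genes.

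**Figure D4:**
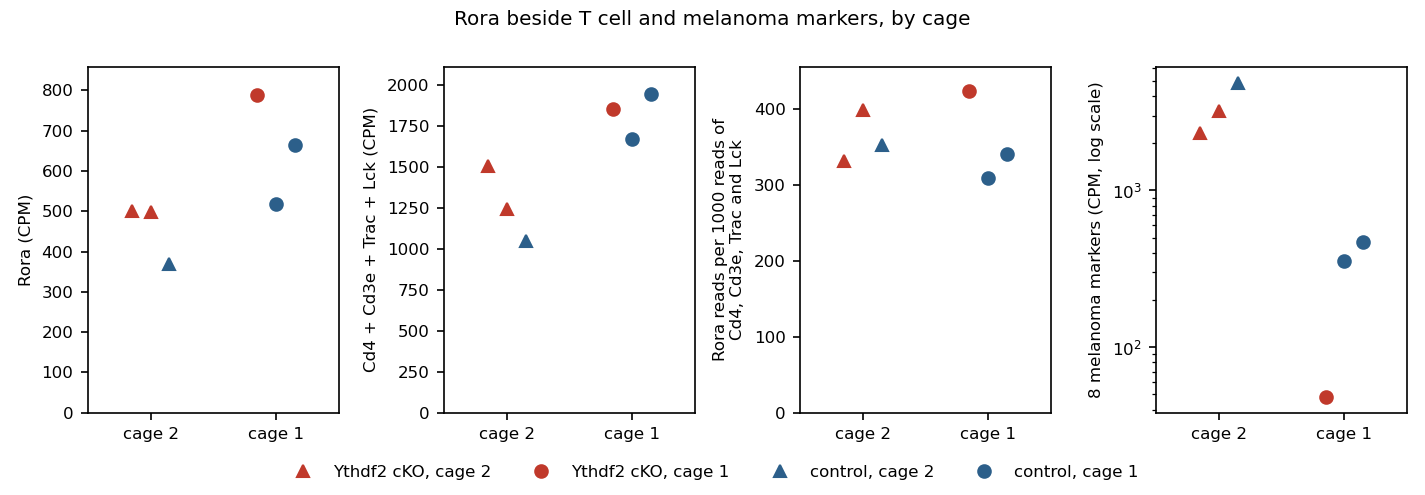
From left to right, Rora in CPM, the summed CPM of Cd4, Cd3e, Trac and Lck, Rora reads per 1000 reads of those 4 genes, and the summed CPM of 8 melanoma markers on a log axis, with cage 2 left of cage 1 and 1 point a library. Rora and the T cell sum are lower in all 3 cage 2 libraries, the ratio overlaps between the cages, and the melanoma sum is higher in cage 2.

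With edgeR at the settings used here, 0 of the other 6 tested genes passed between the cages; Ccr6 did with DESeq2 and without the filter on low counts. Stat3 was at 463 ± 54.8 CPM in cage 2 and 545 ± 108 CPM in cage 1 (SD, n = 3 each; log2 fold change -0.33, 95% interval -0.67 to 0.021, edgeR adjusted p = 0.22). Tmem176a was at 7.16 ± 1.78 CPM in cage 2 and 7.59 ± 8.06 CPM in cage 1 (log2 fold change -0.13, interval -1.28 to 1.03, edgeR adjusted p = 0.91), and Tmem176b at 23.8 ± 4.20 and 17.2 ± 12.2 CPM in cages 2 and 1 (0.41, interval -0.45 to 1.26, edgeR adjusted p = 0.56). Il23r was at 1.82 ± 0.679 CPM in cage 2 and 3.27 ± 1.90 CPM in cage 1 (-0.88, interval -2.68 to 0.93, edgeR adjusted p = 0.55), and Il1r1 at 2.70 ± 1.51 and 1.14 ± 0.561 CPM in cages 2 and 1 (1.24, interval -1.33 to 3.82, edgeR adjusted p = 0.55). With Ythdf2 cKO replicate 1 left out these cage differences were -0.12 for Il23r, -0.066 for Il1r1, 0.91 for Tmem176a and 1.21 for Tmem176b. With control replicate 3 left out they were -1.59, 2.77, -1.05 and -0.36 for the same genes in that order, so the sign turned for 3 of the 4, and for Il23r it turned with the replicate number as a block (1.00). With libraries scaled to the T cell genes the sign turned for Stat3 (0.29) and Tmem176a (0.50), and neither passed. Among the controls alone, cage 2 exceeded cage 1 by 0.92 for Tmem176a and 1.27 for Tmem176b on the log2 scale, and among the Ythdf2 cKO libraries the difference was -1.09 and -0.42. Of the 7 genes, 2 had a cage 2 over cage 1 log2 fold change above 0 and 5 below, with a median of -0.33 beside 0.036 over all genes; scaled to the T cell genes the median was 0.29 beside 0.65.

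**Figure D5:**
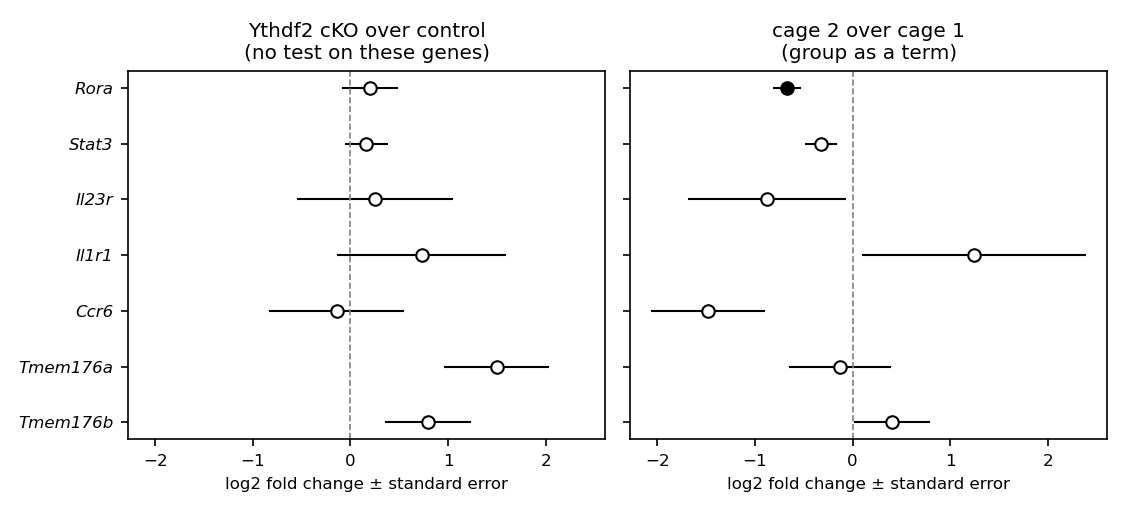
Log2 fold change with its standard error for the 7 genes that passed the filter on low counts, Ythdf2 cKO over control on the left (a description, with no test on these genes) and cage 2 over cage 1 on the right. The filled point, Rora at -0.67, is the call at an edgeR adjusted p under 0.05. Open points in the right panel did not pass with edgeR, and of these Ccr6 passed with DESeq2 and without the filter.

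The receptors were less abundant and more variable than the factors. Ccr6, which guides cells to CCL20, was at 26.2, 17.4 and 17.3 CPM in Ythdf2 cKO replicates 1, 2 and 3 and at 46.7, 14.7 and 5.36 CPM in control replicates 1, 2 and 3. The controls alone thus spanned more than the Ythdf2 cKO libraries, and the log2 fold change of -0.14 (standard error 0.68) was 1.00 without control replicate 1. The difference was -0.0014 within cage 1 and 1.66 within cage 2. Between the cages Ccr6 was at 13.4 ± 6.92 CPM in cage 2 and 29.2 ± 16.2 CPM in cage 1 (SD, n = 3 each), a log2 fold change of -1.48 that did not pass with edgeR (standard error 0.57, adjusted p = 0.14) and did with DESeq2 (-1.5, adjusted p = 0.032), within a range of 4.56e-04 to 1 over its alternatives. The difference was -2.53 without Ythdf2 cKO replicate 1, -0.55 without control replicate 3 and -0.11 with the replicate number as a block.

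Il23r, the subunit that gives the IL-23 receptor its specificity, was read 31, 23 and 10 times in the Ythdf2 cKO libraries and 39, 19 and 14 times in the controls, or 5.08, 2.22 and 1.04 CPM against 3.44, 1.29 and 2.21 CPM. The genotypes overlapped (log2 fold change 0.25, standard error 0.79), and the value was -0.50 without Ythdf2 cKO replicate 1 and 0.66 without control replicate 1. Il1r1, the signalling receptor for IL-1, was read 3, 24 and 42 times in the Ythdf2 cKO libraries (0.491, 2.32 and 4.36 CPM) and 17, 21 and 9 times in the controls (1.5, 1.42 and 1.42 CPM). The 3 controls were nearly level, whereas the Ythdf2 cKO libraries held both the highest and the lowest value, with cage 2 above and cage 1 below. Its log2 fold change of 0.73 (standard error 0.85) was -0.026 without Ythdf2 cKO replicate 3 and -0.031 with cage as a term. The melanoma sum ran in the same order within the Ythdf2 cKO libraries (48.2, 2333 and 3204 CPM), while control replicate 3 had the highest melanoma sum and a CPM of Il1r1 like that of the other controls. Per 1000 reads of the T cell genes Il1r1 stood at 1.53, 3.50 and 1.35 reads in the cage 2 libraries and at 0.264, 0.897 and 0.729 in those of cage 1, and the cages did not overlap. Nor did they for Stat3, at 342, 374 and 388 reads in cage 2 and 331, 251 and 307 in cage 1. Scaled to those genes, the median cage difference over all genes was 0.65, with 3682 of 14235 genes called higher in cage 2 and 10 lower. The share of all genes without overlap on that scale was not computed. The part of tumour RNA in Il1r1 was not tested.

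The cytokines were at the edge of detection. Il17a was read 0, 6 and 0 times in Ythdf2 cKO replicates 1, 2 and 3 and 8, 5 and 2 times in control replicates 1, 2 and 3, and a count of 0 allows up to 0.491 CPM in Ythdf2 cKO replicate 1 and 0.311 CPM in replicate 3 (3 reads per library, counting error only). Il22 was read 2 times in all, both in control replicate 1. Il17f, the partner of Il17a, was read 0 times in the Ythdf2 cKO libraries and 1, 3 and 1 times in the controls. At 5 reads in all, Il17f does not order the groups. Control replicates 1, 2 and 3 held 0.0883, 0.203 and 0.158 CPM of it. A count of 0 allows up to 0.491, 0.289 and 0.311 CPM in Ythdf2 cKO replicates 1, 2 and 3 (3 reads per library). These 3 genes did not pass the filter and were not tested.

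The wider program was read through 41 other genes in 6 lists, of which 30 passed the genotype filter. Of the 30, 16 had a log2 fold change above 0 and 14 below, with a median of 0.023, and 0 passed the test in either direction (edgeR, adjusted p under 0.05; 5 of 9 transcription factors above 0, 4 of 6 receptors, 2 of 3 kinases, 4 of 6 brakes and 1 of 5 ligands and receptors). Ahr, the aryl hydrocarbon receptor, was at 71.6, 41.9 and 39.8 CPM in the Ythdf2 cKO libraries and 67.8, 52.7 and 43.4 CPM in the controls. Between the cages 32 of the 41 were tested, of which 26 were lower in cage 2 (median log2 fold change -0.51) and 6 passed as lower and 0 as higher, beside 3.08% of all genes called lower, 6.96% called higher, 52.0% above 0 and a median of 0.036. These were Nfkbiz (-0.57), Maf (-0.55) and Runx1 (-0.51), which encode transcription regulators, Il12rb1 (-0.88), the IL-12 and IL-23 receptor chain, Il21r (-0.69) and Il17ra (-0.58), with edgeR adjusted p from 0.018 to 0.045. The CD4 T cell and Treg marker lists had medians of -0.61 and -0.65 in the same comparison, with 3 of 4 and 3 of 5 called lower, and their part in the result was not tested.

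The 5 genes most like Rora over the 6 libraries, by the same rule, were Zc3h12a (Pearson r = 0.997), Mrtfa (0.995), Fry (0.993), Camk4 (0.993) and Ahnak (0.992), with Spearman rho from 0.77 to 1. Without Ythdf2 cKO replicate 1 and control replicate 3, the libraries farthest from its median, r ran from 0.975 to 0.995. Of the 9451 genes 473 had r over 0.9 with Rora, so many genes shared its order. Rora and Stat3 had r = 0.89 and rho = 0.83.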

How the data were processed

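The authors deposited 1 table of raw read counts per Ensembl gene for each of the 6 libraries, not normalized. Trimmomatic 0.39, HISAT2 2.1.0, HTSeq and DESeq2 are named with mm10, per the submitters' processing notes, and the kit was stranded, per the labels' protocols. Neither the annotation release nor the strand setting is given in the sources used here. Of 54446 genes, 54409 matched GENCODE M21. Rows that name no gene (no feature 24.6% to 35.8% of records, ambiguous 1.43% to 2.21%, several places 9.22% to 12.9%) stayed out. Every 2 libraries differed by more than counting noise (lowest chi-square over its degrees of freedom 17.4).

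Genes were filtered with filterByExpr (minimum count 10, minimum total 15), TMM-scaled and entered into quasi-likelihood tests of edgeR 4.0.16 under R 4.3.3 (limma 3.58.1 and DESeq2 1.42.0 as alternatives), adjusted by Benjamini and Hochberg over all genes of a fit. The genotype fit had the group only, the cage fit group and cage, and the interaction both. Standard errors are the log2 fold change over the root of F. Within-cage differences use log2 CPM with a prior count of 2. The tests were tried on simulated counts. Named were the 9 genes, Il17f, Ahr, up to 6 listed genes called between cages and the 5 nearest patterns; 1 further gene of that rule is not reported here. The members and lists were chosen with earlier results of these data known. Reads are not independent molecules.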

Additional observations from a re-analysis of the deposited data

How the results depend on the processing

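The count of genes called between the genotypes stayed at 0 in 15 of 16 alternatives, with each library left out among them (0 to 0), and was 33 without the filter on low counts (26 higher, 7 lower). The median of the 7 genes between the genotypes stayed above 0, from 0.042 without Ythdf2 cKO replicate 1 to 0.66 without control replicate 1. Between the cages, 1429 genes were called, and 2420 with DESeq2, 2347 without the filter, 849 without the group term and 3692 (3682 higher, 10 lower) with scaling to 4 CD4 T cell genes, an alternative added after the data were seen. Leaving out 1 library gave 660 (without Ythdf2 cKO replicate 3) to 1234, with 911 when Ythdf2 cKO replicate 1 and 735 when control replicate 2 was left out. Scaling by total counts alone made 612 higher and 628 lower, against 991 and 438 with TMM. The median of the 7 genes between the cages was -0.33, -0.55 to -0.12 with 1 library left out, and 0.29 with scaling to the T cell genes. The call of Rora between the cages was lost in 6 of 16 alternatives, also without the group term (-0.53, adjusted p = 0.13), and its sign held in all 16. Ccr6 also passed between the cages without the filter (-1.51, edgeR adjusted p = 4.56e-04). The interaction called 9 genes, 47 with DESeq2, 60 with total counts, 450 without the filter, and 3 at a mean CPM of at least 5 or with limma-voom; the cause was not tested in these cases.

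Whether the replicate numbers pair the libraries cannot be told apart from cage. Replicates 1 both came from cage 1 and replicates 3 from cage 2, while replicates 2 came from different cages. Deviations from the group means correlated at 0.41 for replicates 1, -0.24 for replicates 2 and 0.55 for replicates 3, and every pair from the same cage correlated above 0 while every pair from different cages correlated below 0. With the replicate number as a block 0 genes were called between the genotypes (median of the 7 genes 0.32), and 246 between the cages, where Rora did not pass (-0.93, adjusted p = 0.16). Depth limits Il17a, Il22, Il1r1 and Il23r most, at 2 to 136 reads over the 6 libraries.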
